A study of Mus musculus and Homo sapiens with 10 samples.

Results

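The 7 genes examined here encode the core transcription factors of the red cell lineage, and the chromatin around them was examined in K562, a human erythroleukaemia line, at passage 14. The genes were GATA1, GATA2, ZFPM1, TAL1, LMO2, KLF1 and NFE2. Each locus was a fixed hg19 window around the gene, and the rule for its islands used position alone: chrX:48620000-48670000 for GATA1, chr3:128170000-128240000 for GATA2, chr16:88500000-88620000 for ZFPM1, chr1:47640000-47720000 for TAL1, chr11:33860000-33980000 for LMO2, chr19:12980000-13010000 for KLF1 and chr12:54670000-54710000 for NFE2. Every enriched region, or island, that overlapped a window was a member. This gave 204 islands of the 360312 in the 3 K562 lists: 50 of 72662 for H3K122ac, 100 of 173981 for H3K27ac and 54 of 113669 for H3K4me1.

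Native chromatin cut with micrococcal nuclease was precipitated with antibodies to H3K122ac, an acetylated lysine in the globular core of histone H3, to H3K27ac, an acetylated lysine of its tail, or to H3K4me1, a monomethylated lysine of the tail. K562 cells were undifferentiated and carried no treatment, and each mark had 1 library, so no value has a replicate error. The series also holds mouse embryonic stem cells, which brings it to 632878 islands in 6 lists. Reads inside islands numbered 18283729 for H3K122ac, 34195325 for H3K27ac and 35562145 for H3K4me1.

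The 7 factors work as a network. GATA1 and GATA2 are zinc-finger proteins that bind GATA motifs, and ZFPM1, also called FOG1, is a cofactor that binds GATA1. TAL1 is a basic helix-loop-helix protein that binds E-boxes, and LMO2 bridges it to GATA factors without touching DNA itself. KLF1 binds CACCC elements and NFE2 binds MAF-type elements with small MAF partners, both at the globin genes among others. H3K27ac is commonly found at active promoters and enhancers, H3K4me1 is typical of enhancers and is often low right at active start sites, and H3K122ac lies on the lateral surface of the nucleosome where the DNA winds around it.

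The lists give 2 read counts for each island, one for the precipitated library and one for a background library. Fold here is the first count over the second, divided by a library ratio that is constant within a list. Intervals of folds are exact 95% binomial intervals of the read counts and cover counting error only. Intervals of shares are exact 95% binomial intervals over islands. They treat islands as independent, although many are neighbours in the same window and all of a list come from the same library. Folds of the loci were compared with the whole of the same list. No hg19 gene annotation was used here, so an island inside a window was not assigned to a promoter, exon or intron, nor to the named gene in preference to a neighbour.

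All 7 windows carried all 3 marks. Together they span 510 kb, of which 405.8 kb lay in at least 1 island and 104.2 kb in none. Summed over the windows, H3K122ac had 28499 reads over 14794 background reads, a pooled fold of 7.46 (7.31 to 7.61), against 6.77 for its whole list. H3K27ac had 45900 reads over 18095 background reads and a pooled fold of 3.69 (3.63 to 3.75), against 2.74 for the whole list. For H3K4me1 the values were 47540 reads, 19940 background reads and a pooled fold of 4.11 (4.04 to 4.18), against 3.14. The 3 folds were thus above those of their lists by more than counting error, least so for H3K122ac.

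Islands at the loci were also longer. Median lengths were 3100 bp for H3K122ac, 1800 bp for H3K27ac and 4600 bp for H3K4me1, against 1800, 1200 and 2000 bp in the whole lists. A fold of 3 or more was reached by 42 of 50 H3K122ac islands, or 84.0% (70.9 to 92.8%), beside 77.6% of that whole list, which is a share near the background. For H3K27ac it was 61 of 100 islands, or 61.0% (50.7 to 70.6%), beside 27.9% of the list, and for H3K4me1 35 of 54, or 64.8% (50.6 to 77.3%), beside 42.4%.

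**Figure D1:**
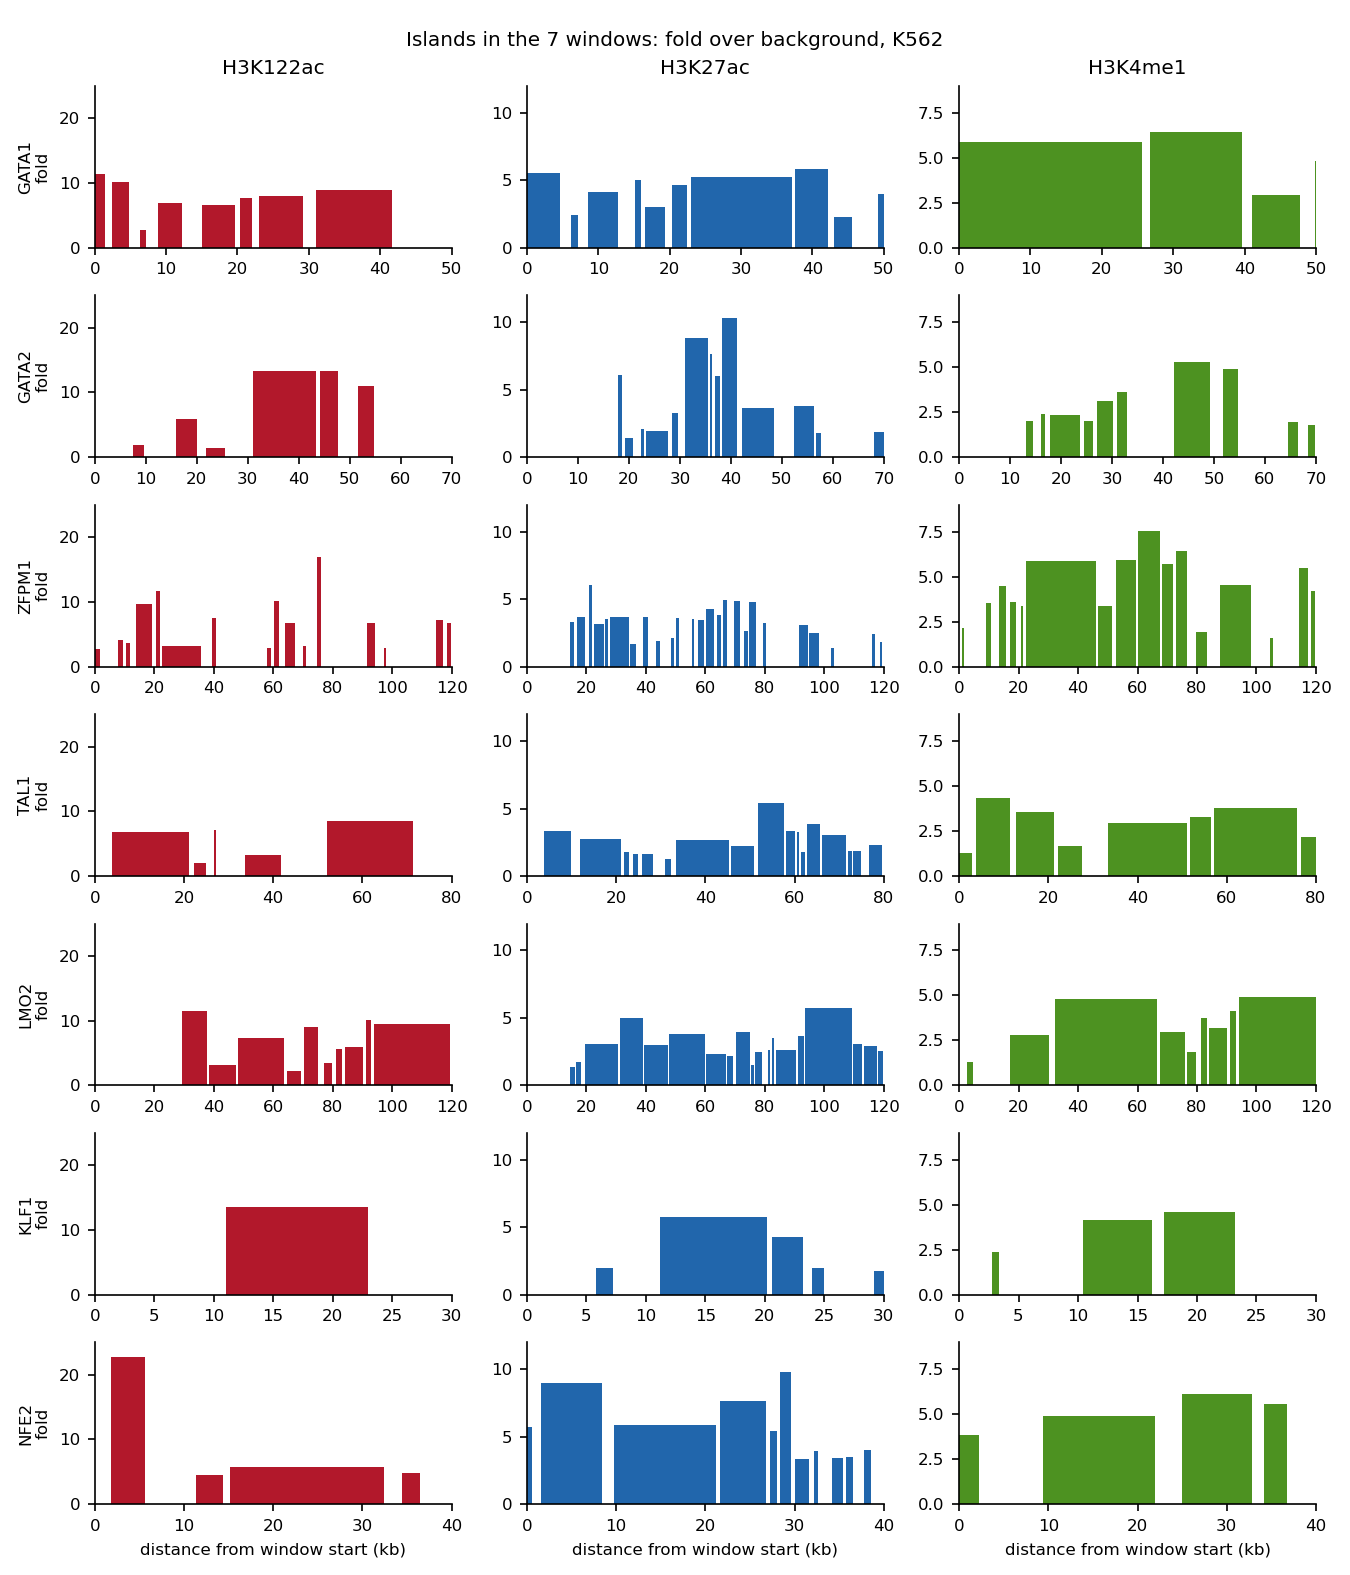
Fold over background (y axis, linear, one scale per mark) of each island, drawn as a bar over its extent in kb from the start of its window (x axis), for 7 loci (rows) and 3 marks (columns). A single H3K122ac bar of fold 13.6 fills the middle of the KLF1 window, while the ZFPM1 window holds 16 H3K122ac bars, most of them narrow, and H3K4me1 over 63.5% of its length.

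At GATA1, the master regulator of erythroid and megakaryocytic differentiation, chromatin was marked almost from edge to edge. H3K4me1 covered 90.8% of the 50 kb window in 4 islands, H3K27ac 75.2% in 10 and H3K122ac 62.0% in 8. All 8 H3K122ac islands met both other marks, as did all those at TAL1, LMO2, KLF1 and NFE2. In the whole H3K122ac list 78.1% of islands met H3K27ac and 85.8% met H3K4me1. No base of the GATA1 window carried H3K122ac alone, which was also so at KLF1 and NFE2. In end-to-end windows of the same length along the genome that held any island, only 0.639% were covered as much by H3K4me1, 2.00% by H3K27ac and 1.37% by H3K122ac. Those windows include gene-poor DNA, so the percentages place a gene locus among all sequence and not among genes.

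The longest H3K122ac island of the GATA1 window, chrX:48651001-48661600, had 1260 reads over 551 background reads and a fold of 8.85 (8.0 to 9.8). The island of highest H3K122ac fold, chrX:48619401-48621400 at the window's edge, had 245 reads over 83 and a fold of 11.4 (8.88 to 14.8). The H3K4me1 islands chrX:48619401-48645600 and chrX:48646801-48659600 had folds of 5.87 and 6.44, and only 4.84% and 2.76% of the H3K4me1 list reached those folds. GATA1 had the highest pooled H3K4me1 fold of the 7 loci, 5.67 (5.38 to 5.98), although its interval overlapped that of NFE2. Its 2 H3K27ac islands without H3K122ac lay at the far end of the window, 1400 bp and 400 bp from the nearest H3K122ac island. The stronger and nearer, chrX:48669201-48670200, had only 55 reads over 20 and a fold of 4.00 (2.36 to 7.05).

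GATA2, the GATA factor of stem and progenitor cells that GATA1 replaces at shared sites as red cells mature, showed another layout. The marks were concentrated in the middle of the 70 kb window, and 24.8 kb of it carried none. Of end-to-end windows of this length with any island, 4.19% were covered as much by H3K122ac, 13.9% by H3K27ac and 17.7% by H3K4me1. The H3K122ac island chr3:128201001-128213400 spanned 12400 bp, with 963 reads over 280 background reads and a fold of 13.3 (11.6 to 15.3). Background in this island was low, at 22.6 reads per kb, against a median of 52.5 over the whole H3K122ac list. Under it lay 5 H3K27ac islands, among them chr3:128208201-128211200 with 524 reads over 74 and a fold of 10.3 (8.06 to 13.3), a level reached by 0.488% of the H3K27ac list. This was the highest H3K27ac fold in any of the 7 windows.

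H3K4me1 was absent from most of that GATA2 island: it covered 3200 bp of the 12400 bp. In the window as a whole, 7.8 kb carried both acetylations without H3K4me1, or 17.3% of the marked bases, against 3.06% of marked bases over the whole lists. The strongest H3K4me1 island, chr3:128212201-128219200, began just inside the end of the acetylated island, with 894 reads over 290 and a fold of 5.31 (4.65 to 6.08). GATA2 also held the only H3K122ac island of the 7 loci that met neither other mark, chr3:128177601-128179600, 8200 bp from the nearest H3K27ac island and 3600 bp from the nearest H3K4me1 island. Its fold was 1.94 (1.36 to 2.74) from 51 reads over 102 background reads, and 93.5% of the H3K122ac list reached that fold.

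ZFPM1, the GATA1 cofactor, stood at the other end for pooled H3K122ac fold. Its 16 H3K122ac islands covered 35.5% of the 120 kb window. Their pooled fold was 6.07 (5.71 to 6.44), below the 6.77 of the whole list. With a q-value of at most 1e-10 it was 6.44 (6.04 to 6.86), an interval that held 6.77. The median fold of the 16 islands, 6.685, was above the list median of 5.34. The long island chr16:88522601-88535600 held 428 of the 2749 H3K122ac reads and 520 of the 1755 background reads. H3K4me1 covered 63.5% and had a pooled fold of 5.04 (4.83 to 5.27), above the 3.14 of its list. Among end-to-end windows of that length that held any island, 4.40% were covered as much by H3K122ac. For H3K27ac the share was 15.2% and for H3K4me1 3.17%. The H3K4me1 island chr16:88560201-88567400, with 867 reads over 198 and a fold of 7.54 (6.46 to 8.85), was the strongest H3K4me1 island in the 7 windows, and 0.936% of that list reached its fold. H3K4me1 alone took 26.2 kb, or 31.6% of the marked bases of the ZFPM1 window, the largest share among the 7 loci.

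Within ZFPM1 the H3K122ac islands ranged widely. The short island chr16:88574801-88576200 had 259 reads over 59 and a fold of 17.0 (12.8 to 23.0), and it lay wholly under both other marks. The longest, chr16:88522601-88535600, covered 13000 bp at a fold of 3.19 (2.80 to 3.63), inside a 23400 bp H3K4me1 island of fold 5.87. A further 3 islands met no H3K27ac, chr16:88500201-88501800, chr16:88507801-88509600 and chr16:88510401-88512000, all near the start of the window. They had 45, 56 and 54 reads and folds of 2.64, 4.17 and 3.67, lay 2400 to 4800 bp from the nearest H3K27ac island, and each touched H3K4me1 over 200 to 800 bp. With the GATA2 island these were the 4 H3K122ac islands of the loci without H3K27ac.

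TAL1, whose product pairs with E proteins, had 2 large H3K122ac domains. The island chr1:47692001-47711400 spanned 19400 bp with 3387 reads over 1551 background reads and a fold of 8.46 (7.96 to 8.98). The island chr1:47643801-47661200 spanned 17400 bp with 2553 reads over 1448 and a fold of 6.83 (6.40 to 7.29). Only 0.299% and 0.417% of the H3K122ac list were as long. Marks of every kind were broad here: H3K122ac covered 60.3% of the 80 kb window, H3K27ac 77.3% and H3K4me1 85.8%.

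Fold at TAL1 was ordinary all the same. Pooled folds were 6.53 (6.28 to 6.79) for H3K122ac, 2.88 (2.79 to 2.98) for H3K27ac and 3.14 (3.04 to 3.24) for H3K4me1, against 6.77, 2.74 and 3.14 for the whole lists. Background was the highest of the 7 loci, at 82.7 reads per kb of H3K122ac island, where the other 6 loci had 34.4 to 62.9. Counted as excess reads, that is ChIP reads scaled by the list's constant less those of the background, TAL1 had 457.1 per kb of H3K122ac island and ranked 2 of 7, against rank 6 of 7 by fold. The part of the background in the TAL1 folds was not tested. The strongest H3K27ac island, chr1:47691801-47697600, had a fold of 5.40 (4.84 to 6.04) and lay almost wholly within the larger H3K122ac domain, whereas the 5200 bp H3K27ac island chr1:47685801-47691000, also within H3K4me1, had 791 reads over 522 and no H3K122ac.

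LMO2, the bridging partner of TAL1, carried the broadest H3K122ac. Its 10 islands covered 67.3% of the 120 kb window, and 0.252% of windows of that length were covered as much. The island chr11:33954001-33979600 was the longest H3K122ac island of the 7 loci, 25600 bp with 3844 reads over 1572 and a fold of 9.47 (8.93 to 10.1), and 0.114% of the list were as long. It lay wholly within the H3K4me1 island chr11:33954001-33987600, of fold 4.92 (4.68 to 5.19), and met 4 H3K27ac islands, led by chr11:33953601-33969200 with 4063 reads over 1029 and a fold of 5.74 (5.36 to 6.16). All 3 marks coincided over 73.8 kb, or 70.8% of the marked bases of this window, the highest share of the 7 loci.

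At the other side of the LMO2 window, chr11:33889201-33897600 had the highest H3K122ac fold of the locus, 11.6 (10.2 to 13.1) from 988 reads over 331. H3K4me1 was missing there over 2000 bp between chr11:33877001-33890200 and chr11:33892201-33926600. Just before that island 9600 bp, chr11:33879601-33889200, carried H3K27ac and H3K4me1 without H3K122ac, the longest such stretch in the 7 windows. The pooled H3K122ac fold of 7.34 (7.10 to 7.60) was above that of the whole list, and the pooled H3K27ac and H3K4me1 folds were 3.59 (3.48 to 3.70) and 4.17 (4.05 to 4.3).

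KLF1, the CACCC-binding activator of the adult beta-globin gene, had the strongest pooled H3K122ac of the 7 loci, in a single island. The island chr19:12991001-13003000 spanned 12000 bp with 2015 reads over 573 background reads and a fold of 13.6 (12.4 to 15.0), and 12.7% of the list reached that fold. The next locus, NFE2, had a pooled fold of 8.85 (8.21 to 9.55), so the intervals did not overlap. The other loci pooled 4 to 16 H3K122ac islands, weak ones among them. Their strongest single islands came near or above the KLF1 fold at GATA2, ZFPM1 and NFE2, at 13.3, 17.0 and 22.7. Excess H3K122ac was the highest as well, at 602.4 reads per kb. H3K27ac followed the same block, in the islands chr19:12991201-13000200 and chr19:13000601-13003200 with folds of 5.74 (5.17 to 6.38) and 4.3.

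H3K4me1 at KLF1 covered the same block except for 1000 bp in its middle, chr19:12996201-12997200, which carried both acetylations. The H3K4me1 islands on either side, chr19:12990401-12996200 and chr19:12997201-13003200, had folds of 4.18 and 4.58 (4.00 to 5.26). Outside the block 3 H3K27ac islands without H3K122ac had folds of 1.78 to 2.02, and 13.4 kb of the 30 kb window held no mark. KLF1 was the only one of the 7 loci with a single H3K122ac island, which covered 40% of its window. In end-to-end windows of this length with any island, 7.8% were covered as much by H3K122ac, 15.0% by H3K27ac and 22.6% by H3K4me1.

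The window of NFE2, the bZIP factor of globin control regions, had the highest H3K122ac fold of any single island. It also had the highest pooled H3K27ac fold of the 7 loci. The island chr12:54671801-54675600 had 1110 reads over 189 background reads and an H3K122ac fold of 22.7 (19.5 to 26.7), which 2.82% of the list reached. It held 1110 of the 2265 H3K122ac reads of the locus and 189 of its 991 background reads. The median H3K122ac fold of the 4 islands was 5.31, the lowest of the 7 loci. The H3K27ac island over the strongest H3K122ac island, chr12:54671601-54678400, had 1497 reads over 243 and a fold of 8.96 (7.82 to 10.3). H3K4me1 covered only 400 of the 3800 bp: the H3K4me1 island chr12:54662001-54672200 ended just inside and the next began at position 54679401. The stretch with both acetylations and no H3K4me1, chr12:54672201-54675600, was 3400 bp long, the longest of that kind in the 7 windows. These islands and this stretch, near the start of the window, were not assigned to NFE2 or to a neighbouring gene.

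The rest of the NFE2 window had a different character. The H3K122ac island chr12:54685201-54702400 spanned 17200 bp at a fold of 5.80 (5.25 to 6.43), close to the list median of 5.34, over 6 separate H3K27ac islands. One of these, chr12:54698401-54699600, had the highest H3K27ac fold of the locus, 9.83 (6.44 to 15.6), from 169 reads over 25. All 11 H3K27ac islands of the NFE2 window had a fold above 3, and the pooled H3K27ac fold of 6.37 (5.97 to 6.79) exceeded that of every other locus without overlap of intervals. With islands limited to a q-value of at most 1e-10 it stayed highest, but its interval overlapped that of KLF1, at 5.44 (4.96 to 5.99). Background was below the list median, at 37.2 reads per kb of H3K27ac island against a median of 55.0.

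**Figure D2:**
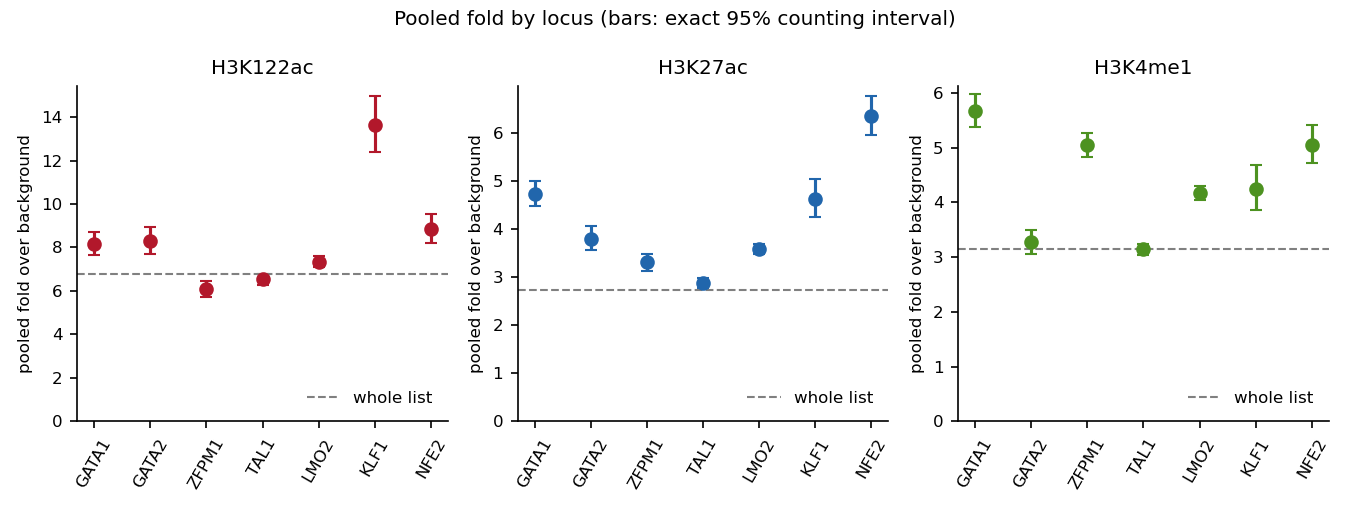
Pooled fold over background (y axis, linear) of the islands at each locus (x axis), 1 panel per mark; bars are exact 95% counting intervals and the dashed line is the pooled fold of the whole list. KLF1 stands highest for H3K122ac at 13.6, NFE2 for H3K27ac at 6.37 and GATA1 for H3K4me1 at 5.67, while TAL1 lies near the dashed line in each panel.

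The order of the loci differed from mark to mark. By pooled H3K122ac fold it ran KLF1, NFE2, GATA2, GATA1, LMO2, TAL1 and ZFPM1, with intervals that overlapped between NFE2 and GATA2, GATA2 and GATA1, and TAL1 and ZFPM1. For H3K27ac it ran NFE2, GATA1, KLF1, GATA2, LMO2, ZFPM1 and TAL1, with overlap between GATA1 and KLF1, GATA2 and LMO2, and LMO2 and ZFPM1. H3K4me1 ran GATA1, NFE2, ZFPM1, KLF1, LMO2, GATA2 and TAL1, and the neighbours not separated by counting error were GATA1 and NFE2, NFE2 and ZFPM1, KLF1 and LMO2, and GATA2 and TAL1. By pooled fold ZFPM1 was last for H3K122ac and the third for H3K4me1. GATA2 was the third for H3K122ac and next to last for H3K4me1. By median H3K122ac fold of single islands the order was KLF1, GATA2, GATA1, TAL1, ZFPM1, LMO2 and NFE2. Those medians were 13.6, 8.41, 7.83, 6.83, 6.685, 6.59 and 5.31, beside 5.34 in the whole list. NFE2 thus went from second by pooled fold to last by median. The orders by pooled fold changed at a q-value of at most 1e-10. GATA2 then stood above NFE2 for H3K122ac, at 11.2 (10.3 to 12.2) against 8.85 (8.21 to 9.55), without overlap of intervals. KLF1 stood above GATA1 for H3K27ac, at 5.44 against 4.74, and ZFPM1 above NFE2 for H3K4me1, at 5.17 against 5.05, both with overlapping intervals. Among islands wholly inside the windows KLF1 again stood above GATA1 for H3K27ac and TAL1 above GATA2 for H3K4me1, each with overlapping intervals.

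**Figure D3:**
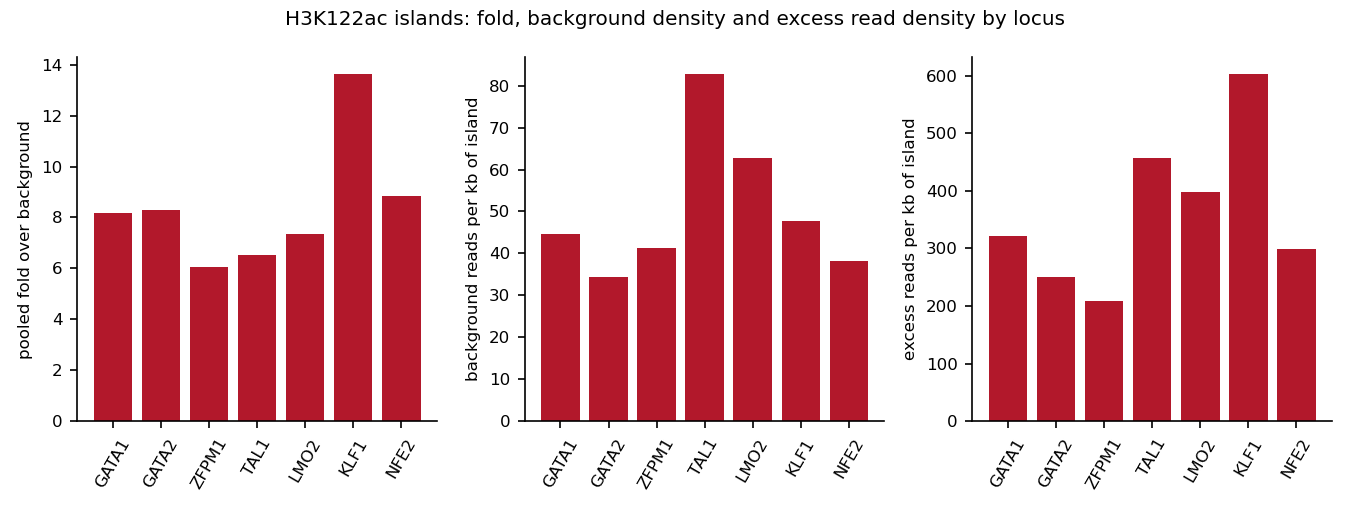
H3K122ac at each locus (x axis): pooled fold over background, background reads per kb of island and excess reads per kb of island (y axes, linear from 0). TAL1 has the highest background, 82.7 reads per kb, and the second highest bar of excess reads, 457.1 per kb, while its fold is 6.53.

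The order also moved with the measure. By excess H3K122ac reads per kb the order was KLF1, TAL1, LMO2, GATA1, NFE2, GATA2 and ZFPM1, at 602.4, 457.1, 398.7, 320.9, 299.2, 250.5 and 208.6. KLF1 was first and ZFPM1 last both by pooled fold and by excess. TAL1 and LMO2, the loci with the most background per kb, gained places, and NFE2 and GATA2, with the least, at 38.1 and 34.4 reads per kb, lost them. At a given fold, excess per kb rises with background per kb by its definition. Why background differed between the loci was not tested.

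The study asks how globular-domain acetylation relates to H3K27ac, and at these loci the marks met more often than in the lists at large. H3K27ac was met by 46 of 50 H3K122ac islands, or 92.0% (80.8 to 97.8%), beside 78.1% of the whole H3K122ac list. H3K4me1 was met by 49 of 50, or 98.0% (89.4 to 99.9%), beside 85.8%. In the whole list both shares were higher among long islands. Among islands at least as long as the list median the H3K27ac share at the loci was 36 of 38, or 94.7% (82.3 to 99.4%), beside 90.4% of such islands in the list. The H3K4me1 share of these 38 islands was 97.4% (86.2 to 99.9%), beside 94.7% of the list, so for long islands both shares were near the background. Of the 12 shorter islands 83.3% (51.6 to 97.9%) met H3K27ac, beside 63.25% of such islands in the list. For H3K4me1 it was 100% (73.5 to 100%), beside 75.0%. Both of these intervals held the share of the list.

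Seen from H3K27ac the difference was larger. H3K122ac was met by 75 of 100 H3K27ac islands (65.3 to 83.1%), beside 41.9% of the whole H3K27ac list. At or above the list's median length the share was 79.5% (68.4 to 88.0%), beside 48.8% of the list, and below it 63.0% (42.4 to 80.6%), beside 32.3%. H3K4me1 islands met H3K122ac in 43 of 54 cases, or 79.6% (66.5 to 89.4%), beside 54.2% of that list. For those at least as long as that list's median the share was 85.7% (71.5 to 94.6%), beside 66.7%. The 2 enhancer-associated marks met each other in 89 of 100 H3K27ac islands (81.2 to 94.4%), beside 69.4%, and in 45 of 54 H3K4me1 islands, or 83.3% (70.7 to 92.1%), beside 70% of the list. Neither of these shares was split by length. The H3K27ac island of highest fold, at GATA2, was among the 11 that met no H3K4me1.

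The 75 H3K27ac islands with H3K122ac were stronger and longer than the 25 without. The median H3K27ac fold was 3.51 with H3K122ac and 2.02 without, and the median length 2400 bp with and 1200 bp without. In the whole H3K27ac list the median folds were 2.89 with H3K122ac and 2.06 without. TAL1 held 5 of the 25, ZFPM1 7, GATA2, KLF1 and LMO2 3 each, and GATA1 and NFE2 2 each. The strongest, chr12:54669401-54670600 at NFE2, had 83 reads over 21 and a fold of 5.75 (3.53 to 9.77), and lay 1200 bp from an H3K122ac island. The constant that scales reads to background was 0.258 for H3K122ac and 0.688 for H3K27ac, and the part of read depth in these shares was not tested.

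**Figure D4:**
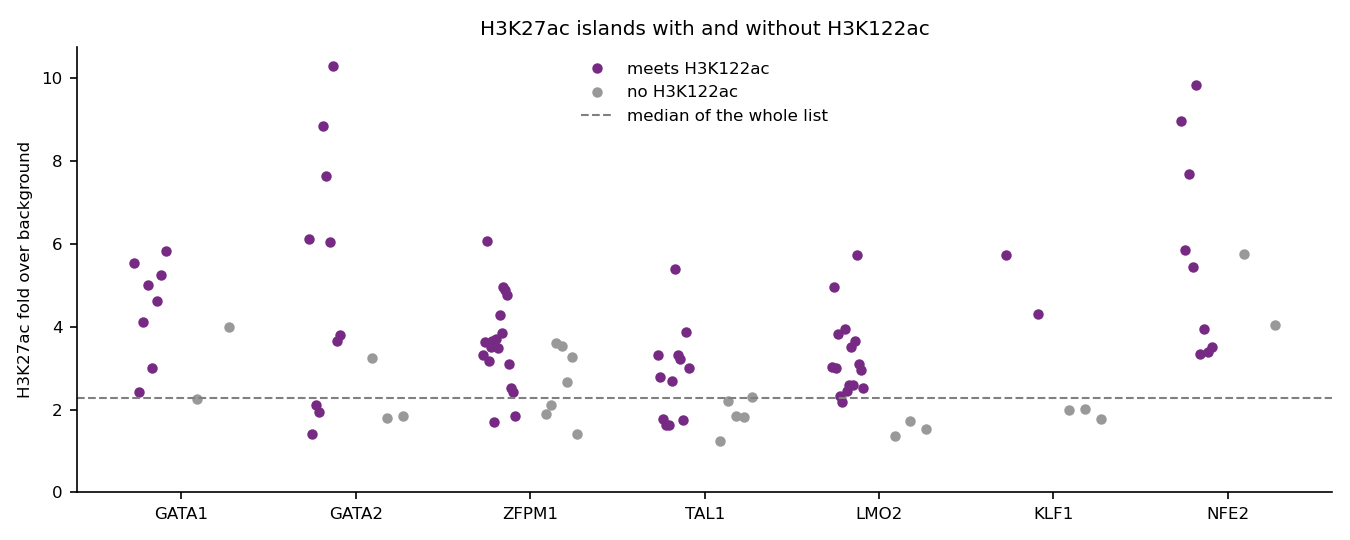
H3K27ac fold (y axis, linear) of each of the 100 H3K27ac islands by locus (x axis), those that meet H3K122ac to the left and those that do not to the right; the dashed line is the median of the whole H3K27ac list, 2.27. Islands without H3K122ac reach at most 5.75, and the 9 above 6 all meet H3K122ac. The share of islands above 6 that meet H3K122ac in the whole list is not given here.

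Base by base, the loci were richer in the full combination of marks. All 3 marks coincided on 213 kb of the 405.8 kb marked, or 52.5%, against 24.7% of the 484.7 Mb marked in the whole lists. H3K122ac alone took 2.86% against 4.82%, H3K27ac alone 4.63% against 16.8% and H3K4me1 alone 14.1% against 23.4%. Of the H3K122ac bases, 87.2% carried H3K27ac and 87.5% H3K4me1, against 70.5% and 80.0% in the whole H3K122ac list.

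Both acetylations without H3K4me1 were unevenly spread. They took 9.44% of the bases with both acetylations at the loci, against 11.0% in the whole lists, a share near the background. Of all marked bases they took 5.47% at the loci, against 3.06% in the whole lists. GATA2 and NFE2 together held 14.2 of these 22.2 kb, with 7.8 and 6.4 kb. Every window had at least 1 such stretch, the longest being 3400 bp at NFE2, 3000 bp at GATA2, 1400 bp at GATA1, 1000 bp at KLF1, 800 bp at TAL1, 800 bp at LMO2 and 400 bp at ZFPM1.

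**Figure D5:**
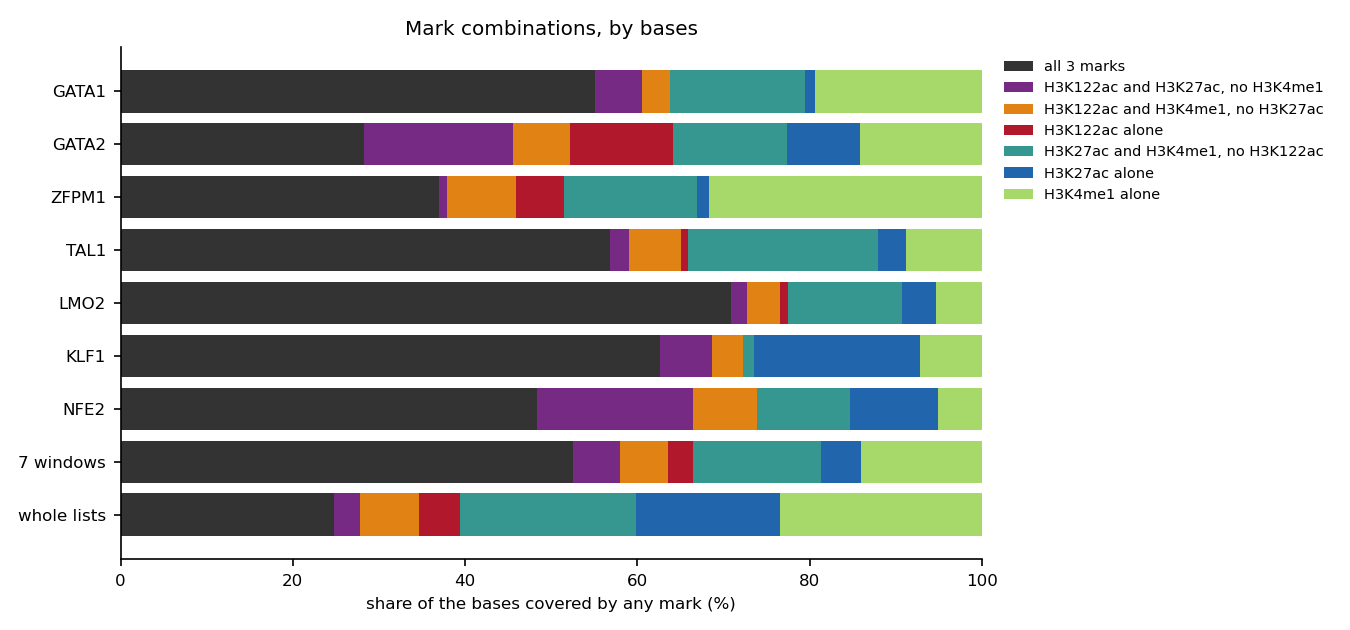
Share of the bases covered by any mark (x axis, percent) that carried each combination of the 3 marks, for the 7 loci, the 7 windows together and the whole K562 lists (rows). The stretch with all 3 marks is 70.8% at LMO2 and 28.3% at GATA2, and 52.5% over the windows against 24.7% in the whole lists.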

How the data were processed

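Native chromatin immunoprecipitation libraries of K562, 1 each for H3K122ac, H3K27ac and H3K4me1, were analysed from the island lists the authors deposited. Groups came from the sample titles. Bowtie 0.12.8, SICER 1.1 and HOMER 4.3 are listed, with build hg19, per the submitters' processing notes, which state no role for any of them. Per the names of the deposited lists, islands were called in windows of 200 bp at a false discovery rate of 0.01, with gaps of 200 bp (H3K27ac) or 600 bp (the others). Smallest distances of 400 bp and 800 bp between islands were found in the files.

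Each deposited list holds raw read counts of the ChIP library and of a background library, a p-value, a q-value and a fold, all by the authors. The deposited fold equalled, to rounding, the ratio of the counts divided by 0.258, 0.688 and 0.581 for H3K122ac, H3K27ac and H3K4me1. Islands with identical ends had the same background count in each pair of lists; which library it came from was not stated in the material used.

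From these, pooled folds (ratio of summed counts over the library ratio), exact Clopper-Pearson 95% intervals, overlaps by at least 1 bp, and coverage in bins of 200 bp were computed with Python 3.11.15, NumPy 2.4.6, pandas 2.3.3 and SciPy 1.17.1. Reads of whole islands were used, and coverage was cut at the window edges. The functions were tested on simulated lists. With 1 library per mark no test between conditions was made, and reads without molecular identifiers are not independent molecules. The members and gene windows were chosen with earlier results of these data known. Islands named were, by locus and list, the highest fold with at least 10 background reads, the longest, and those lacking a partner mark; further ones, and all stretches of mark combinations, were chosen after their values were seen. Other erythroid genes and cell type markers were not scored, because no human annotation was used here.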

Additional observations from a re-analysis of the deposited data

How the results depend on the processing

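The 7 results pooled over the loci were recomputed under the alternatives, giving 52 values, of which 36 stayed within the counting interval of the reported value. Leaving out the LMO2 or the ZFPM1 window, splitting islands by length and ordering loci by excess reads were added after seeing the data. With a q-value of at most 1e-10, 100% of H3K122ac islands met H3K4me1, against 80.0% of the list, and pooled folds were 7.74 for H3K122ac, 3.90 for H3K27ac and 4.23 for H3K4me1. With a fold of 3 or more in both lists, 88.1% of H3K122ac islands met H3K4me1, against 58.2% of the list, and 86.9% of H3K27ac islands met H3K122ac, against 68.9%. With 50% of the island covered, 64.8% of H3K4me1 islands met H3K122ac, against 38.9%. Among islands shorter than the list median, 100% of 12 H3K122ac islands met H3K4me1, against 75.0% of the list, and H3K122ac was met by 63.0% of 27 H3K27ac islands, against 32.3%, and by 58.3% of 12 H3K4me1 islands, against 39.5%. Medians of single islands were 6.77, 3.32 and 3.59 for H3K122ac, H3K27ac and H3K4me1. Without the ZFPM1 window the pooled folds were 7.65 for H3K122ac and 3.96 for H3K4me1. For islands wholly inside the windows the H3K4me1 fold was 4.04. The cause of these shifts was not tested. Of 42 values by locus, 32 stayed within their interval and none moved by more than 1.35 times; the largest shift was at GATA2, where the H3K122ac fold was 11.2 at the stricter q-value, against 8.29. No paired analysis was possible because each K562 mark has 1 library.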

Other observations

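A pair of islands at LMO2 had identical ends for H3K122ac and H3K4me1, and so the same bases and the same background count. At chr11:33944001-33950200 H3K122ac had 713 reads and a fold of 5.89, and H3K4me1 had 865 reads and a fold of 3.18, over 469 background reads. At chr11:33951201-33953000 H3K122ac had 358 reads and a fold of 10.1, and H3K4me1 had 330 reads and a fold of 4.15, over 137 background reads. Folds of different lists are not levels on one scale, so the ratio of the H3K122ac fold to the H3K4me1 fold was set only against the same ratio elsewhere. It was 1.85 and 2.44, beside a median of 1.75 over the 4024 islands with identical ends in the whole lists, and 45.3% and 25.6% of those islands had at least these ratios.

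Broad H3K122ac islands often lay over several H3K27ac islands, for which the authors allowed a shorter gap: 6 under chr1:47692001-47711400 at TAL1, 6 under chr12:54685201-54702400 at NFE2 and 5 under chr3:128201001-128213400 at GATA2. When H3K27ac islands were joined across 600 bp, 54 remained in the 7 windows in place of 100, and 70.4% (56.4 to 82.0%) of them met H3K122ac, beside 44.9% of the whole list joined in the same way. The longest stretches without any mark were 9600 bp at LMO2, 9000 bp at ZFPM1 and 7600 bp at GATA2.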
